A study of Mus musculus with 3 samples.

Results

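Leukocyte lineage genes are transcripts used to recognise the white blood cells, and here they were followed in bulk RNA-seq libraries of sorted adult lung endothelial cells (ECs). The set holds 40 genes, chosen by name from what is known of blood cells, among 24346 gene symbols in the table, and all 40 have a row. They fall into 7 groups, with 3 pan-leukocyte genes, 5 T cell genes, 3 B cell genes, 5 NK cell genes, 4 neutrophil genes, 17 macrophage genes (a group that also takes in genes shared by other myeloid cells) and 3 mast cell genes. The lung ECs were freshly isolated from wild type C57BL/6J mice, which the study's methods give as males of 6 to 8 weeks. Vessels were labelled in the living animal by an injected VE-cadherin antibody, and the dissociated cells were stained for CD31, CD45 and podoplanin and purified by FACS with a purity mask. There were 3 libraries, named S38, S44 and S52, all of 1 condition, so no difference between conditions could be tested. Nothing in the labels says whether the libraries came from separate animals or pools, and the spread between them may hold technical as well as biological differences.

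White blood cells share an origin in the bone marrow but differ sharply in the genes they use. CD45, the protein made from *Ptprc*, is carried by nearly all of them and is the usual surface marker for keeping them out of a sorted endothelial fraction. T cells are recognised by the CD3 chains of their receptor, B cells by the CD79 chains of theirs, NK cells by granzymes and natural cytotoxicity receptors, neutrophils by S100 calcium-binding proteins, and macrophages by lysozyme, complement C1q, scavenger receptors and the receptor for CSF1. The lung holds many of these cells, with macrophages in the airspaces and the tissue and with neutrophils and lymphocytes held in the capillary bed.

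Values are FPKM, fragments scaled to transcript length and library size, as the authors deposited them, which allows levels to be compared between genes. Depth, estimated from the steps between low values, ran from 33900000 fragments in S52 to 38800000 in S44, and 1 FPKM of a 2000 bp transcript rests on an estimated 62.7 fragments in S52, 69.9 in S38 and 71.4 in S44. The endothelial identity of the libraries was clear, with *Pecam1*, the CD31 gene, at 1125 FPKM in S38, 1216 in S44 and 1164 in S52, and the 10 endothelial markers summed to between 6291 and 7058 FPKM. S52 stood apart from the other libraries in the markers of several other cells. Alveolar type 2 markers summed to 4001, 3339 and 801 FPKM in S38, S44 and S52, airway markers to 2767, 2303 and 401, platelet markers to 1692, 1345 and 37.96, and erythroid markers to 394, 790 and 94.6. All 6 alveolar type 2, all 4 airway and all 4 platelet markers were lowest in S52 and none was at 0 in any library, the 5 erythroid markers with a row were lowest there too, and only 3 of the 10 endothelial markers were lowest there. Leukocyte values are therefore given for each library throughout, and their relation to these other markers was not tested. In bulk RNA, fewer cells of a type and less RNA per cell cannot be told apart.

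Most of the 40 genes were present at low levels. By the mean of the 3 libraries, 25 of 40 (62.5%) reached 1 FPKM, beside 48.3% of all genes. Above 10 FPKM there were 9 (22.5%), beside 25.7% of all genes, and above 100 FPKM there was only *Lyz2*, beside 3.64% of all genes. In every library, 11 of the 40 were at 1 FPKM or above, beside 43.9% of all genes. The median of the members' means was 1.41 FPKM, and that of all genes was 0.784 FPKM. The libraries differed, since 26 members were at 1 FPKM or above in S38, 25 in S44 and 11 in S52, while the same share over all genes moved only between 46.3% and 49.1%. Of the 40, 12 were listed at 0 in S52, 3 in S38 and 1 in S44, beside 40.8%, 34.2% and 33.3% of all genes, so the members' share was below that of all genes in each library. *Ms4a2*, which encodes the beta chain of the mast cell IgE receptor, was listed at 0 in all 3.

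**Figure D1:**
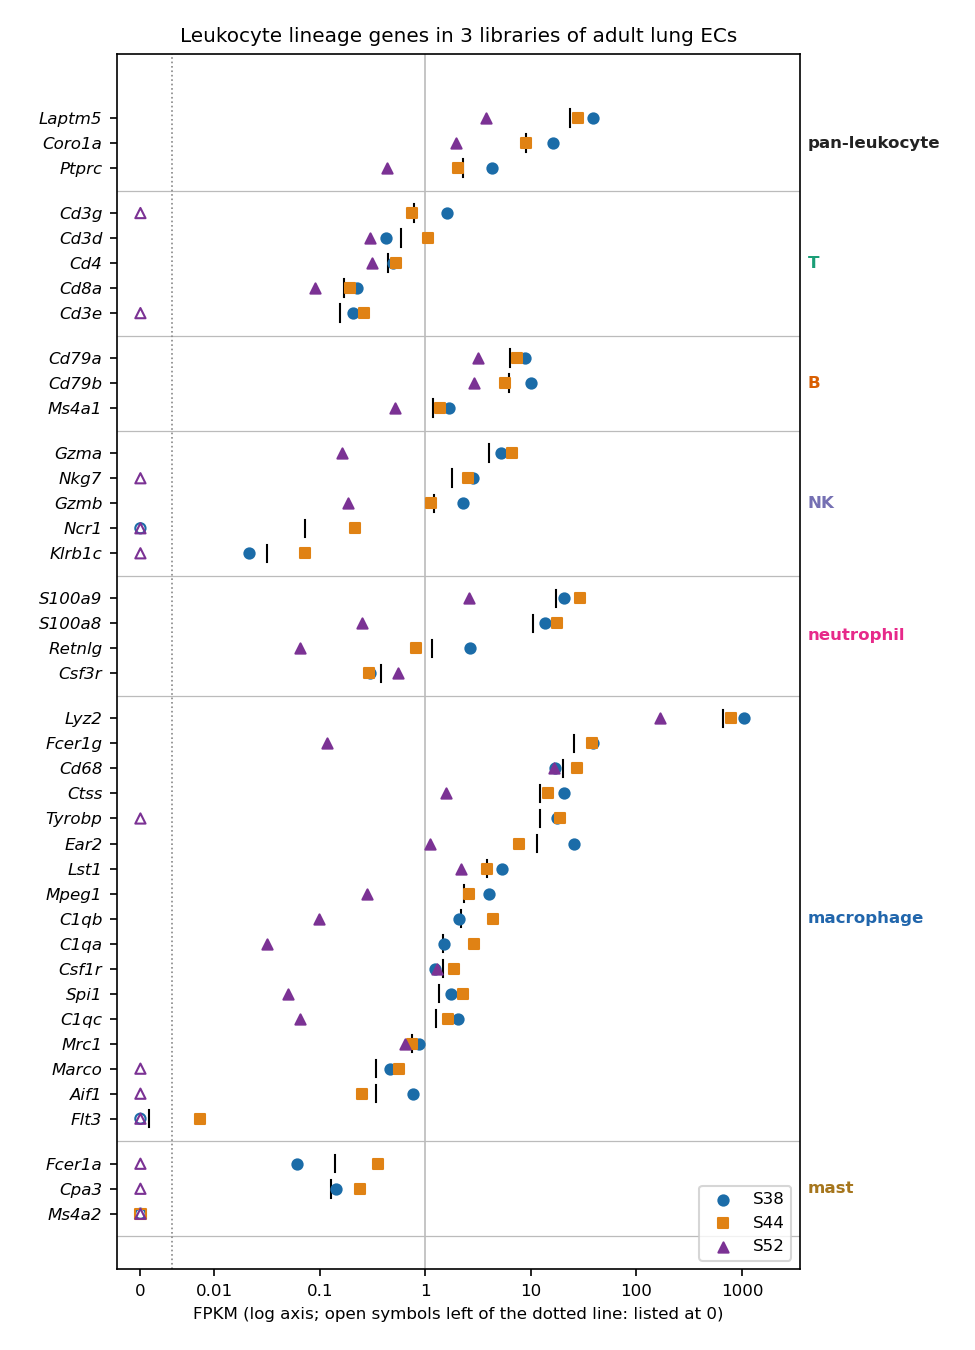
Level of each of the 40 leukocyte lineage genes in FPKM (log axis) in S38 (circles), S44 (squares) and S52 (triangles), grouped by lineage; the vertical tick marks the mean, and open symbols left of the dotted line are genes listed at 0. The S52 triangle lies furthest left for 35 of the 40 genes, *Lyz2* stands alone above 100 FPKM, and *Csf1r*, *Cd68* and *Mrc1* have their 3 symbols close together.

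S52 was the lowest library for nearly every detected member. Among the 25 members at 1 FPKM or above, 24 were lowest in S52, 1 in S38 and 0 in S44, beside 46.3%, 25.0% and 28.2% of all 11770 genes at that level. The exception was *Csf1r*. Over all 40 members, 35 were lowest in S52, beside 31.9% of all genes, *Csf1r* was lowest in S38, *Csf3r* was lowest in S44, and 3 had tied lowest values of 0. Ties were more common over all genes, at 8679 of 24346, which lowers the share of 31.9%. On the log2(FPKM + 1) scale the highest library was over 2-fold above the lowest for 22 of 25 members, beside 12.7% of all genes at 1 FPKM or above. The 3 that stayed within 2-fold were *Ms4a1*, *Csf1r* and *Cd68*. The median log2 difference between the highest and lowest library was 1.94 for these members and 0.43 for all genes at that level.

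These counts rest on S52. With S38 and S44 alone, 26 members reached 1 FPKM and 2 of them, *Retnlg* and *Ear2*, differed over 2-fold, beside 2.14% of all genes. Without S38 the number was 16 of 21 members, beside 8.36% of all genes, and without S44 it was 20 of 23, beside 9.56%. The median log2 ratio of S38 to S44 over the 25 detected members was 0.21, against 0.033 over all detected genes, while those of S38 to S52 and S44 to S52 were 1.89 and 1.74, against 0.083 and 0.062.

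**Figure D2:**
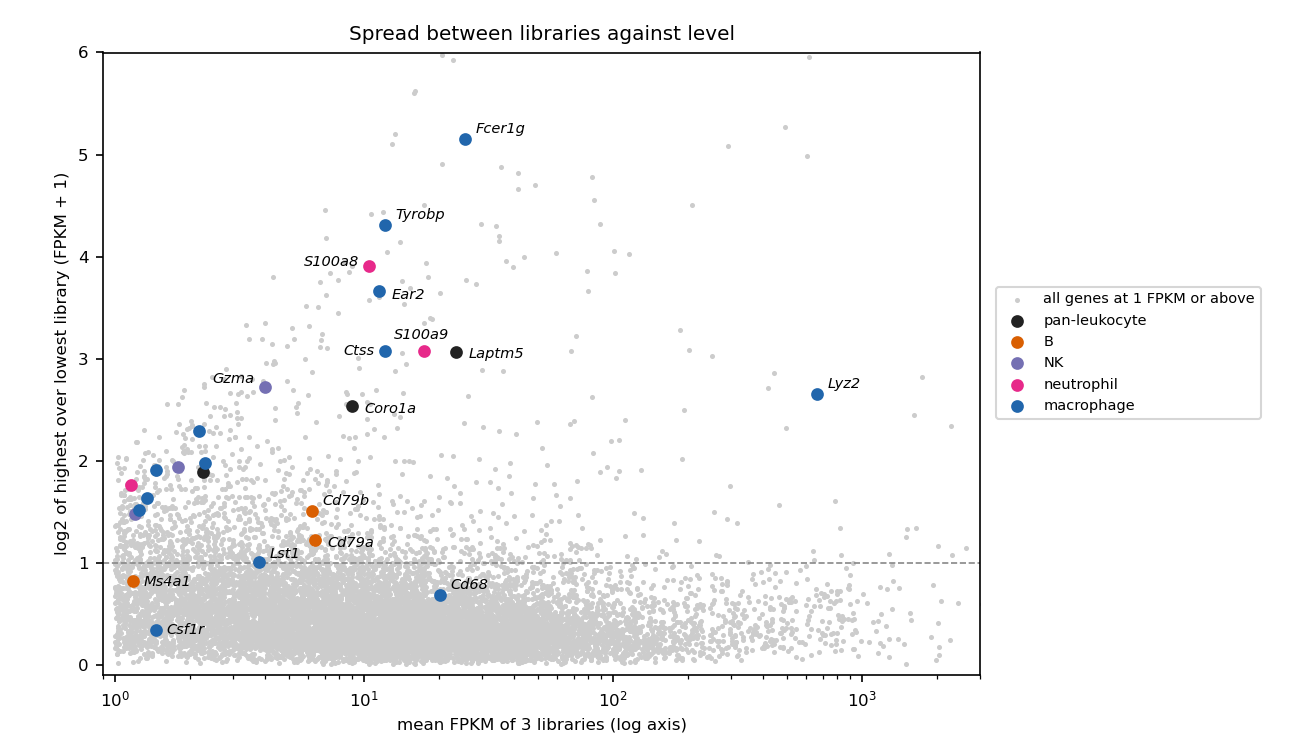
Mean FPKM over the 3 libraries (log axis) against the log2 difference between the highest and lowest library, computed on FPKM + 1, for all genes at 1 FPKM or above (grey) and the 25 leukocyte genes among them (coloured by lineage). The dashed line is a 2-fold difference; 22 of the 25 coloured points lie above it and *Ms4a1*, *Csf1r* and *Cd68* lie below it, and 100 grey genes fall outside the drawn range.

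The pan-leukocyte genes are not bound to 1 type of white blood cell, but the total of white blood cell RNA was not measured. *Ptprc*, on chromosome 1 (GRCm38 chr1:138063407-138175306, minus strand), encodes the CD45 protein against which the cells were stained. It was at 4.30 FPKM in S38, 2.06 in S44 and 0.434 in S52, or 2.26 ± 1.94 FPKM (SD, n = 3), which rests on an estimated 803, 393 and 72 fragments. CD45 transcript was thus measurable in all 3 libraries, at 0.194% of the *Pecam1* mean, and S38 was 9.91 times S52. *Laptm5*, which encodes a lysosomal membrane protein of blood cells, was higher, at 38.7, 28.1 and 3.74 FPKM. *Coro1a*, which encodes the actin regulator coronin 1A, was at 16.1, 8.91 and 1.96 FPKM. All 3 genes took the order S38, S44, S52, with S38 between 8.22 and 10.3 times S52, and the ratio of *Coro1a* to *Ptprc* moved only from 3.74 to 4.51.

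T cell genes of the member set were low. None of the 5 reached a mean of 1 FPKM, and the sum of the group was 2.96 FPKM in S38, 2.77 in S44 and 0.701 in S52. *Cd3g*, the gamma chain of the CD3 complex, had the highest mean of them, at 1.61, 0.744 and 0 FPKM, but was above the others only in S38. *Cd3d*, the delta chain, was at 0.426, 1.05 and 0.301 FPKM, and *Cd3e*, the epsilon chain, was at 0.206, 0.261 and 0 FPKM. The 3 chains belong to 1 receptor complex and lie side by side on chromosome 9, but they did not share an order of libraries, with *Cd3g* highest in S38 and the other two highest in S44. For *Cd3g* the limit that a value of 0 allows in S52 (3 fragments) is 0.101 FPKM, and S38 was 15.9 times that limit. *Cd4*, the co-receptor of helper T cells, was the steadiest of the group, at 0.493, 0.523 and 0.310 FPKM. *Cd8a*, the co-receptor of cytotoxic T cells, was at 0.224, 0.191 and 0.0899 FPKM, the last of these from an estimated 9 fragments. Annotated exons of *Cd3e* overlap *Gm48719* on the opposite strand over 9.23% of their length, and these non-stranded libraries do not separate the strands.

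Among the members, B cell genes were higher than T cell genes as a group. Their medians were 8.70 against 0.426 FPKM in S38, 5.68 against 0.523 in S44 and 2.91 against 0.0899 in S52. The further genes of these lineages, described below, did not repeat this in S38 or S52. In S38 the further B and T cell medians were 0.588 and 0.861 FPKM. In S44 they were 0.857 and 0.344, and in S52 0.108 and 0.117. *Cd79a* and *Cd79b* encode the paired signalling chains of the B cell receptor. *Cd79a* was at 8.70 FPKM in S38, 7.32 in S44 and 3.17 in S52, and *Cd79b* was at 10.1, 5.68 and 2.91 FPKM. Their ratio stayed between 0.863 and 1.29, and S52 kept an estimated 140 and 126 fragments of them. *Ms4a1*, which encodes CD20, was at 1.66, 1.38 and 0.511 FPKM, the widest ratio between libraries being 3.26. The group's sum was 20.4, 14.4 and 6.59 FPKM, so that, with *Lyz2* left aside, B cell genes were the fourth of the groups in S38 and S44 and the second in S52. Of the 51-base words of *Cd79a*, 8.10% also occur in *Gm32220*.

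In the NK group the granzymes were present and the receptors were not measurable with any precision. *Gzma*, granzyme A, was at 5.25 FPKM in S38, 6.66 in S44 and 0.163 in S52. The S52 value comes from an estimated 5 fragments, and the ratio of S44 to S52 was 40.8 with an exact 95% interval of 16.1 to 119 for counting error alone. *Gzmb*, granzyme B, was at 2.30, 1.12 and 0.187 FPKM. *Nkg7*, a granule protein of cytotoxic lymphocytes, was at 2.84, 2.56 and 0 FPKM, with S38 at 23.5 times the limit of 0.121 FPKM in S52. These 3 genes are shared by NK cells and cytotoxic T cells. The more restricted NK genes were lower, with *Ncr1*, the receptor NKp46, at 0, 0.216 and 0 FPKM and *Klrb1c*, the receptor NK1.1, at 0.0213, 0.0726 and 0 FPKM. *Klrb1c* shares 18.0% of its 51-base words with other genes, so even these few fragments are uncertain.

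Neutrophil genes split into abundant S100 transcripts and a scarce receptor. *S100a8* and *S100a9* encode the calprotectin subunits and lie near each other on chromosome 3. *S100a8* was at 13.6 FPKM in S38, 17.8 in S44 and 0.251 in S52, and *S100a9* was at 20.5, 29.1 and 2.58 FPKM. Both were highest in S44, but they differed in S52, where an estimated 3 fragments of *S100a8* and 32 of *S100a9* remained. *S100a9* stood to *S100a8* as 1.51 in S38, 1.64 in S44 and 10.3 in S52, and the ratio of S44 to S52 was 70.9 for *S100a8* (exact 95% interval 22.8 to 330) and 11.3 for *S100a9*. *Retnlg*, a resistin-like gene of neutrophils, was at 2.62, 0.808 and 0.0653 FPKM, the S52 value being an estimated 1 fragment. *Csf3r*, the receptor for G-CSF, went the other way, at 0.302, 0.291 and 0.549 FPKM. *Csf3r* was the only member with its highest value in S52, and 10.7% of its 51-base words also occur in other genes.

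**Figure D3:**
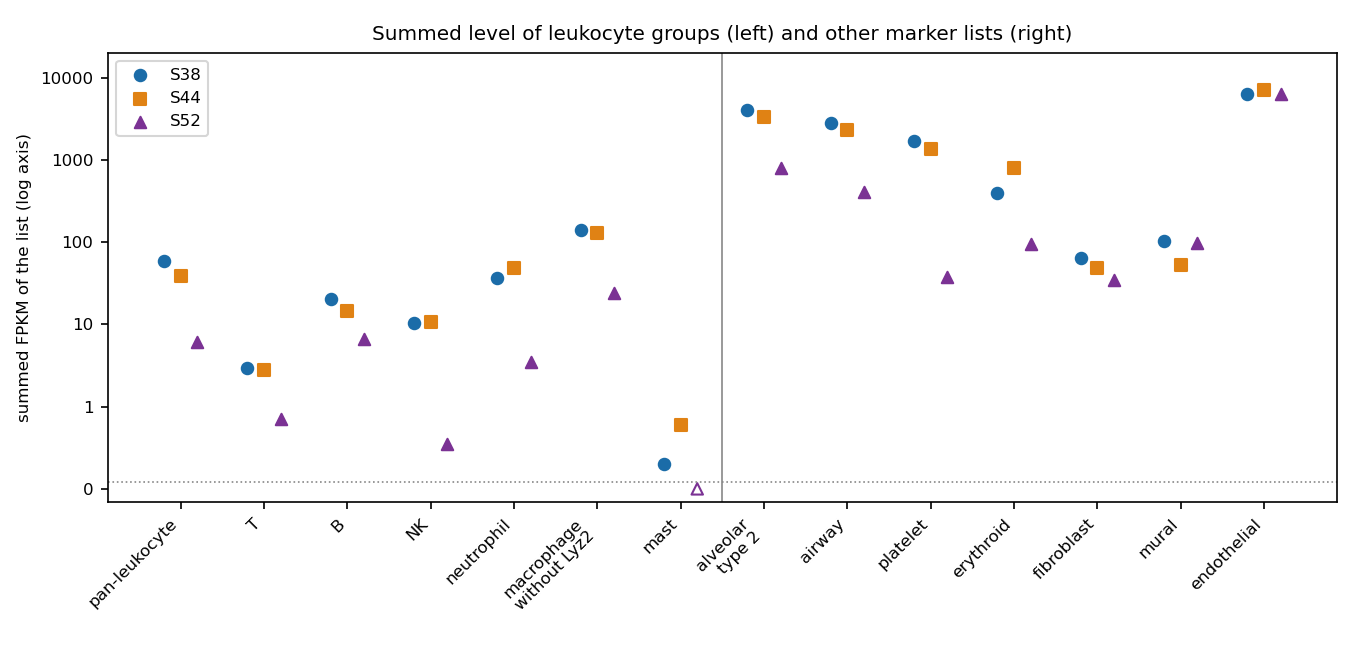
Summed FPKM (log axis) of each leukocyte group (left of the line) and of marker lists of other cells (right) in S38, S44 and S52; the open triangle is a sum of 0. The S52 triangle is the lowest symbol of every leukocyte group, from 0 for mast cell genes to 24.1 FPKM for macrophage genes without *Lyz2*, while the endothelial list stays between 6291 and 7058 FPKM.

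The macrophage group held the widest and the narrowest ratios between libraries among detected members, and its genes are given in sets. Promoter windows are shown, for the member with the widest ratio between libraries (*Fcer1g*), for a protease gene also low in S52 (*Ctss*) and for one of the genes that did not follow (*Cd68*). They are the 250 bases before the RefSeq start on GRCm38.p6, written in the direction of the gene, with the letters GAGGAA in capitals. GAGGAA is a sequence found in sites bound by PU.1, the factor encoded by *Spi1*. Shorter or other forms of those sites were not searched.

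*Fcer1g*, chr1:171234350-171234599, minus strand: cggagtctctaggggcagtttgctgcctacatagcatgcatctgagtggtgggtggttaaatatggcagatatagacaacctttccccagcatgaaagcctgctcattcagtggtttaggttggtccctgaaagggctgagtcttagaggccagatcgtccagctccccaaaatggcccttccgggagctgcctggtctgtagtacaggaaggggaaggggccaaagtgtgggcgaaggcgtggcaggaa
*Ctss*, chr3:95526536-95526785, plus strand: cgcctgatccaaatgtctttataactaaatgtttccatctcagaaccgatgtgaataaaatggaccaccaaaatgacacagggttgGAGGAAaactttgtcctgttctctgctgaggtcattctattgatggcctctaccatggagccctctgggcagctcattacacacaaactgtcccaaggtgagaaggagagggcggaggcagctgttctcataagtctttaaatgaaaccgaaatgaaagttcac
*Cd68*, chr11:69666171-69666420, minus strand: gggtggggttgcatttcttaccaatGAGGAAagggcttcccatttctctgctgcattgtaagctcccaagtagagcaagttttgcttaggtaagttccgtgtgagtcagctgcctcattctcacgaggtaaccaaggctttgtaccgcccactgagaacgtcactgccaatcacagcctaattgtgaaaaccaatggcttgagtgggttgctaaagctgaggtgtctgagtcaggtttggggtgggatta

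The window of *Fcer1g* holds no GAGGAA or its complement TTCCTC, and those of *Ctss* and *Cd68* hold 1 each. Both strands were searched. Of the 40 members, 32 had a window, with 35 windows among them, and 17 of the windows (48.6%) held the letters, beside 23.3% of 32851 windows of all genes. The match is a description of the letters only. It was found in *Cd68*, which stayed within 2-fold between libraries, and in *Ctss* and *C1qb*, which did not. It was not limited to myeloid genes. Some T cell and NK genes held the letters, such as *Cd3d* and *Klrb1c*, and others did not, such as *Cd3g* and *Gzma*. *Tyrobp* and *Spi1* are among the 8 members named without a window.

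*Fcer1g*, *Tyrobp*, *Spi1* and *Aif1*, set together here after their values were seen, were at or near 0 in S52. *Fcer1g*, the common gamma chain of Fc receptors (chr1:171229572-171234365, minus strand), was at 38.6 FPKM in S38, 37.8 in S44 and 0.118 in S52. The S52 value is an estimated 2 fragments against 768 in each of the others, and the ratio of S38 to S52 was 329, with an exact 95% interval of 96.3 to 2888. *Tyrobp*, the adaptor DAP12 that signals for many myeloid and NK receptors (chr7:30413788-30417577, plus strand), was at 17.8, 18.8 and 0 FPKM. S44 was 88.0 times the limit of 0.214 FPKM in S52. S38 and S44 were close to each other for both genes, and the ratio of *Fcer1g* to *Tyrobp* was 2.17 and 2.01 there. *Spi1*, the gene of the myeloid and B cell transcription factor PU.1, was at 1.74, 2.25 and 0.0500 FPKM. *Aif1*, the calcium-binding protein IBA1, was at 0.769, 0.252 and 0 FPKM. For these 4 genes S52 held between 0 and 3 estimated fragments.

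The complement C1q genes behaved in a like way. *C1qa*, *C1qb* and *C1qc* encode the 3 chains of C1q, which tissue macrophages make, and lie together on chromosome 4. In S38, S44 and S52, *C1qa* was at 1.51, 2.87 and 0.0318 FPKM, *C1qb* at 2.06, 4.38 and 0.0975 FPKM, and *C1qc* at 2.05, 1.64 and 0.0656 FPKM. The S52 values are an estimated 1, 3 and 2 fragments. *C1qa* and *C1qb* were highest in S44, and *C1qc* was highest in S38, so the ratio of *C1qc* to *C1qa* was 1.36 in S38 and 0.571 in S44. The ratio of highest to lowest library was 90.2 for *C1qa*, with an exact 95% interval of 15.2 to 3455, and the intervals of *C1qb* (15.6 to 228) and *C1qc* (9.78 to 306) overlap it.

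*Ctss*, *Mpeg1*, *Lst1* and *Ear2* were also lowest in S52, with more estimated fragments there than the C1q genes. *Ctss*, the lysosomal protease cathepsin S, was at 20.7 FPKM in S38, 14.4 in S44 and 1.57 in S52. *Mpeg1*, the pore-forming protein perforin-2, was at 4.05, 2.61 and 0.281 FPKM. Both took the order S38, S44, S52, with ratios of 13.2 and 14.4 between the ends, and an estimated 64 fragments of *Ctss* remained in S52. *Lst1*, a transmembrane protein of myeloid cells encoded in the MHC region, was at 5.36, 3.88 and 2.17 FPKM, a ratio of 2.48. *Ear2*, an eosinophil-associated ribonuclease, was at 25.8, 7.70 and 1.11 FPKM, with S38 at 23.3 times S52. Its ratio of 3.35 between S38 and S44 was the widest of any member at 1 FPKM or above. Of the 51-base words of *Ear2*, 40.7% also occur in 5 other genes, of which *Ear10* and *Ear6* were listed at 0 in all libraries and *Ear1* was at 6.85, 6.30 and 0 FPKM, so its level is uncertain.

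*Cd68* and *Csf1r* did not follow S52 downward. *Cd68*, a lysosomal glycoprotein widely used as a macrophage marker (chr11:69664213-69666153, minus strand), was at 17.0 FPKM in S38, 27.4 in S44 and 16.7 in S52, or 20.4 ± 6.12 FPKM (SD, n = 3). S38 and S52 were nearly equal, at an estimated 690 and 610 fragments. *Csf1r*, the receptor for CSF1, was at 1.25, 1.85 and 1.30 FPKM, with S52 between the other libraries. *Cd68* took ratios to *Pecam1* of 0.0151, 0.0225 and 0.0143, and the ratio of *Cd68* to *Csf1r* stayed between 12.9 and 14.8. Part of the *Csf1r* exons (18.6%) overlaps *Hmgxb3* on the opposite strand, a gene at a mean of 9.51 FPKM, so in these non-stranded libraries its level may include fragments of that gene. *Mrc1*, the mannose receptor CD206, was also even, at 0.877, 0.743 and 0.638 FPKM. *Marco*, a scavenger receptor of alveolar macrophages, was low, at 0.461, 0.561 and 0 FPKM. *Flt3*, the receptor tyrosine kinase of progenitors and dendritic cells, was listed at 0 in S38 and S52 and at 0.00731 FPKM in S44.

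*Lyz2*, the M-type lysozyme of macrophages and neutrophils (chr10:117277331-117282321, minus strand), was by far the most abundant member. It was at 1047 FPKM in S38, 780 in S44 and 166 in S52, or 664 ± 452 FPKM (SD, n = 3), above 99.3% of all genes and at 56.9% of the *Pecam1* mean. It alone made up most of the summed level of the 40 genes, which was 1317, 1022 and 207 FPKM with it and 270, 243 and 41.3 FPKM without it. *Lyz2* is also a known product of alveolar type 2 cells, and its ratios to markers of other cells were therefore set side by side. Over *Sftpc*, the surfactant protein C gene, *Lyz2* had ratios of 0.314 in S38, 0.272 in S44 and 0.252 in S52, and the ratio to *Scgb1a1*, the club cell secretoglobin, was 0.392, 0.352 and 0.438. These ratios moved by 1.25 and 1.24 times between libraries, and that of *Lyz2* to the pan-leukocyte gene *Laptm5* by 1.64 times, while those of *Lyz2* to *Fcer1g* moved by 68.3 times, to *Ppbp*, a platelet chemokine gene, by 10.4 times and to *Pecam1* by 6.54 times. *Lyz2* thus varied across the libraries much like these epithelial genes and also like *Laptm5*. The ratio to *Lyz1*, its paralogue with 14.8% of *Lyz2*'s 51-base words in common, was 6.46, 6.48 and 4.81. With 3 libraries these ratios are a description, and the cells that gave the *Lyz2* transcript were not identified.

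**Figure D4:**
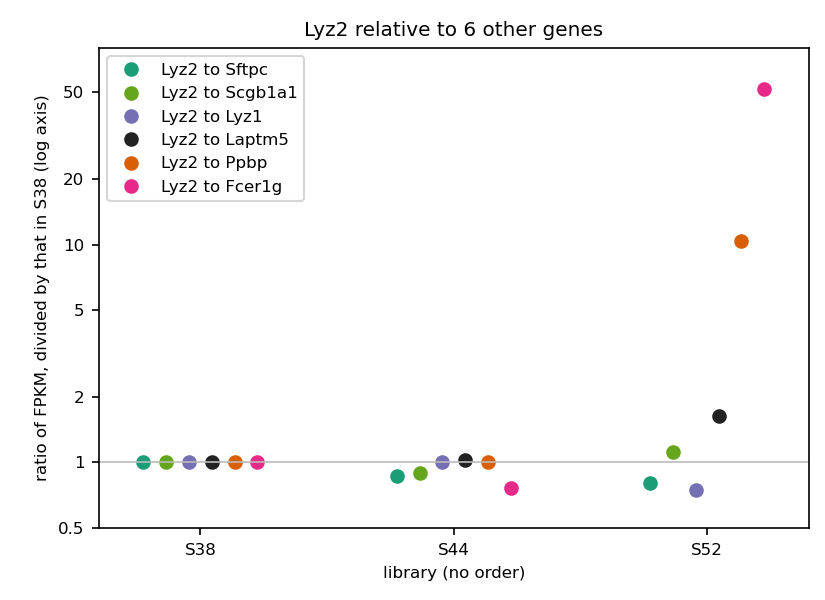
Ratio of *Lyz2* FPKM to that of 6 other genes in each library, divided by the same ratio in S38 (log axis), one colour for each gene. In S52 the points for *Sftpc*, *Scgb1a1* and *Lyz1* stay near 1, that for *Laptm5* is at 1.64 times S38, and those for *Ppbp* and *Fcer1g* lie above 10.

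The 3 mast cell genes of the member set were at or near 0. *Cpa3*, the mast cell carboxypeptidase, was at 0.142, 0.238 and 0 FPKM, and *Fcer1a*, the alpha chain of the IgE receptor, was at 0.0605, 0.356 and 0 FPKM. For *Ms4a2* the value of 0 allows up to 0.0354 FPKM in S38, 0.0347 in S44 and 0.0395 in S52, counting error only. None of the 3 reached 1 FPKM in any library.

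The members also differed in which non-leukocyte gene they tracked across the libraries. As a measure of likeness, the SD of the log2 ratio to a reference gene was taken over the 3 libraries, a measure chosen after the values were seen and computed for the 23 detected members above 0 in all libraries. It was smallest against *Pecam1* for *Csf1r* (0.26) and *Cd68* (0.36), against *Scgb1a1* or *Sftpc* for *Lyz2* (0.16 for either), *Laptm5* (0.28), *Ptprc* (0.40), *Ctss* (0.46), *S100a9* (0.51), *Lst1* and the 3 B cell genes, and against *Ppbp* for *S100a8* (0.42), *Spi1* (0.50), *Gzma* (0.54), *C1qc* (0.59) and *C1qa* (0.69). *Lyz2* lay at 0.37 from *Ptprc*. Some of these choices were near ties. *Lst1* lay at 0.68 from both *Sftpc* and *Pecam1*, and *Ctss* at 0.46 from *Scgb1a1* and 0.48 from *Ptprc*. The 3 B cell genes lay between 0.38 and 0.58 from *Sftpc*. *Coro1a* (0.14), *Gzmb* (0.19), *Mpeg1* (0.48) and *Ear2* (0.62) lay nearest to *Ptprc* itself. *Fcer1g* lay far from every reference, the nearest being *Ppbp* at 1.47. Each value has 3 points that share the depth and the standing apart of S52.

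Further genes of the same lineages, 89 in number and 85 with a row, were described in the same way. At 1 FPKM or above there were 33, of which 26 were lowest in S52, 5 in S38 and 2 in S44, beside 46.3%, 25.0% and 28.2% of all genes, and 18 differed over 2-fold between libraries, beside 12.7% of all genes. Among pan-leukocyte genes, *Itgb2*, the beta 2 integrin chain, was at 32.9, 26.3 and 1.71 FPKM, *Arhgdib*, a regulator of small GTPases, at 59.1, 51.7 and 11.5 FPKM, and *Cd52*, a small surface glycoprotein, at 10.3, 15.4 and 5.03 FPKM. *Lcp1*, the actin bundler L-plastin, stayed level, at 39.2, 49.5 and 46.7 FPKM. In the T cell list *Tcf7*, a Wnt pathway transcription factor, was at 13.0, 11.7 and 17.0 FPKM and *Cd247*, the CD3 zeta chain, was at 8.71, 11.6 and 9.48 FPKM. Both were many times the level of the CD3 chains of the member set, and neither was lowest in S52. They were exceptions, since 11 of the 13 further T cell genes with a row were lowest in S52. The median of the means over those 13 genes was 0.669 FPKM. In the B cell list *Pou2af1*, a co-activator of immunoglobulin genes, was at 1.27, 1.54 and 0.598 FPKM.

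The NK and myeloid lists were mixed as well. In the mast list, 5 of 7 genes were lowest in S52 and 2 had tied lowest values of 0. *Ccl5*, a chemokine of cytotoxic lymphocytes, was at 13.7, 11.9 and 2.13 FPKM, while *Tbx21*, which encodes T-bet, was highest in S52, at 0.330, 0.396 and 1.57 FPKM. The neutrophil receptor genes *Il1r2*, a decoy receptor for interleukin 1, and *Cxcr2*, a chemokine receptor, took opposite orders. *Il1r2* was at 3.35, 2.47 and 1.49 FPKM and *Cxcr2* at 1.42, 1.51 and 2.19 FPKM. *Chil3*, a chitinase-like protein of alveolar macrophages, was at 55.7, 26.1 and 3.28 FPKM, and *Cd14*, the lipopolysaccharide co-receptor, was at 13.4, 13.0 and 5.57 FPKM. *Plac8*, at 86.4, 102 and 60.7 FPKM, and *Clec9a*, a lectin receptor of dendritic cells, at 25.4, 22.4 and 20.9 FPKM, were within 2-fold across the libraries. *Kit*, the receptor for stem cell factor, was the most abundant gene of the mast list, at 91.1, 110 and 81.0 FPKM, far above *Hdc*, which makes histamine, at 9.29, 8.04 and 2.46 FPKM. *Mcpt4* of the same list was at 3.35, 2.54 and 0 FPKM. The median of the means over the 7 genes of that list was 0.140 FPKM, and the cells that gave the *Kit* transcript were not identified.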

How the data were processed

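The authors deposited 1 table of FPKM values per gene symbol for poly-A selected, non-stranded, 51 bp paired-end libraries. The submitters' processing notes name bcl2fastq 2.17, FastQC 0.11.5, Trimmomatic 0.36, TopHat2 2.1.0, Cufflinks 2.2.1 and mm10, whereas the study's methods describe STAR and HTSeq for its counts. The FPKM values were used as deposited, with 0 columns of other samples left out, and read with Python 3.11.15, numpy 2.4.6, pandas 2.3.3, scipy 1.17.1 and matplotlib 3.10.9. They are not counts, and with 1 group of 3 libraries no test was run. The members and all lists were chosen with earlier results of these data known. All 40 members are named, as are the 2 highest further genes of each lineage and any at 10 FPKM or above, except for a gene not reported here. Genes at a mean of 1 FPKM or above were called detected, and differences over 2-fold were called on FPKM with a pseudocount of 1, which understates changes of low genes.

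Depth was estimated, with a procedure settled on once the values were known, as the number of fragments that makes low values whole for 7077 genes with 1 basic transcript of 800 to 4000 bp. Within 0.15 fragments, 78.4%, 77.4% and 74.9% of low values were whole in S38, S44 and S52. Tested on simulated data, its error did not pass 0.364%. The simulation used the same formula and genes as the estimate, so this error does not cover departures of the real values from that formula. Several members lie outside the length range, among them *Fcer1g* (683 bp, with 2 basic transcripts), *Tyrobp* (564 bp) and *S100a8* (486 bp), and their fragment numbers are less certain. A value of 0 was given a limit of 3 fragments, and 95% intervals of ratios are exact (Clopper-Pearson); both cover counting error only. Gene positions, exon overlaps and shared 51-base words are from GENCODE M21 (GRCm38), and promoters from RefSeq (GRCm38.p6). The alternatives were other detection limits and pseudocounts, rescaled libraries and each library left out.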

Additional observations from a re-analysis of the deposited data

How the results depend on the processing

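Of 56 alternative values, 5 moved by more than 1.5 times for a count or by more than the SD between libraries for a median. All 5 were counts. Leaving out 1 library could hardly move a median by more than that SD, so the rule says little about the medians. Within that SD, leaving out 1 library still moved the median of the pan-leukocyte group from 8.99 to 5.43 FPKM and of the NK group from 1.20 to 0.655 (both without S38), and of the macrophage group from 2.18 to 1.27 and of the mast group from 0.127 to 0.0303 (both without S44). The number of members detected was 25 at a mean of 1 FPKM, 9 at a mean of 10 FPKM (25.7% of all genes) and 11 when 1 FPKM was required in every library (43.9% of all genes). The number lowest in S38 was 0 after rescaling each library to a sum of 1000000 FPKM, and the number lowest in S44 was 1 when all members above 0 in a library were counted. The number differing over 2-fold ranged from 2 to 20 when 1 library was left out, the lowest without S52. After rescaling to a sum of 1000000 FPKM it was 18 of 20 members, beside 15.2% of all genes, and after rescaling to the endothelial median it was 22 of 25, beside 13.1%. No paired analysis was possible because the libraries form 1 group. Values under about 10 estimated fragments, most of them in S52, are limited by depth.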
